A study of Mus musculus with 30 samples.

Results

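The back skin of D6-deficient mice 6 days after the last of 3 applications of TPA was compared with that of D6-deficient mice that had not received TPA. D6 is an atypical chemokine receptor, listed on the array under its older symbol Ccbp2, which takes up and removes inflammatory CC chemokines without starting a classical signal. TPA is a phorbol ester that, painted on skin, makes keratinocytes divide and draws in inflammatory cells. The comparison uses 6 of the 30 arrays of the series, the 3 labelled D6 KO on day 6 and the 3 labelled D6 KO on day 0, chosen by their labels. All mice of the series were female, of the strain 129–C57BL/6 and 8 to 12 weeks old, and their backs were shaved. Mice of days 1, 2, 4 and 6 received 50 µM TPA 3 times at intervals of 24 h, and the day counts from the last application. Day 0 mice are called untreated in the labels and, in the study's methods, received acetone alone. The study places 3 mice in each group, and the same 5 days were sampled from wild-type (WT) mice. D6 was deleted in the germ line, so every cell type of the D6 KO skin lacked it from birth.

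Each array measured RNA from a piece of whole skin, so a level belongs to epidermis, hair follicles, sebaceous glands, dermis, fat and the thin sheet of skeletal muscle under mouse skin together. In such samples fewer cells of a type and less RNA per cell cannot be told apart. Hair follicles pass through a cycle of growth (anagen), regression (catagen) and rest (telogen). In anagen the matrix at the base of the follicle divides, builds a keratin shaft inside an inner root sheath, and receives pigment from melanocytes. Inflamed epidermis, in turn, switches on a set of stress keratins and of small proteins of the cornified envelope.

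Values are log2 intensities, and a change is the mean of day 6 minus the mean of day 0. Error is the standard error (SE) of the limma fit over all 30 arrays, and adjusted p is by Benjamini-Hochberg over the 36029 probe sets tested. A gene is said to have risen or fallen at an adjusted p under 0.05, and a probe set is called when it also changed more than 3-fold. A gene with several probe sets was read on the one of highest mean over all arrays. The correlation between arrays was 0.989 to 0.993 within the D6-deficient day 0 mice, 0.972 to 0.982 within the day 6 mice, and 0.941 to 0.975 between them. Keratinocyte markers (Krt5, Krt14, Krt1, Krt10) and fibroblast markers (Col1a1, Col3a1, Dcn) lay above the 98th percentile of probe sets by mean level. The hybridization controls of the arrays fell into 2 sets, and day 0 replicates 2 and 3 lay in the lower set while day 0 replicate 1 and all 3 day 6 arrays lay in the higher set.

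Of the 36029 probe sets, 320 were called higher on day 6 (0.888%) and 446 lower (1.24%). The fall was thus more frequent than the rise at more than 3-fold, while at any size 5753 rose and 5674 fell. The median change over all probe sets was −0.01. The called probe sets with a single symbol belonged to 597 genes, 269 higher and 328 lower. In 39.4% of all tested probe sets the 3 day 6 values lay all on one side of the 3 day 0 values, and so they did in 747 of the 766 called, which were selected for a large change. Read gene by gene, 18.5% of 17772 genes rose and 14.7% fell, and 1.29% rose and 1.61% fell by more than 3-fold, with a median change of 0.02. These shares are the background for the gene lists below.

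**Figure D1:**
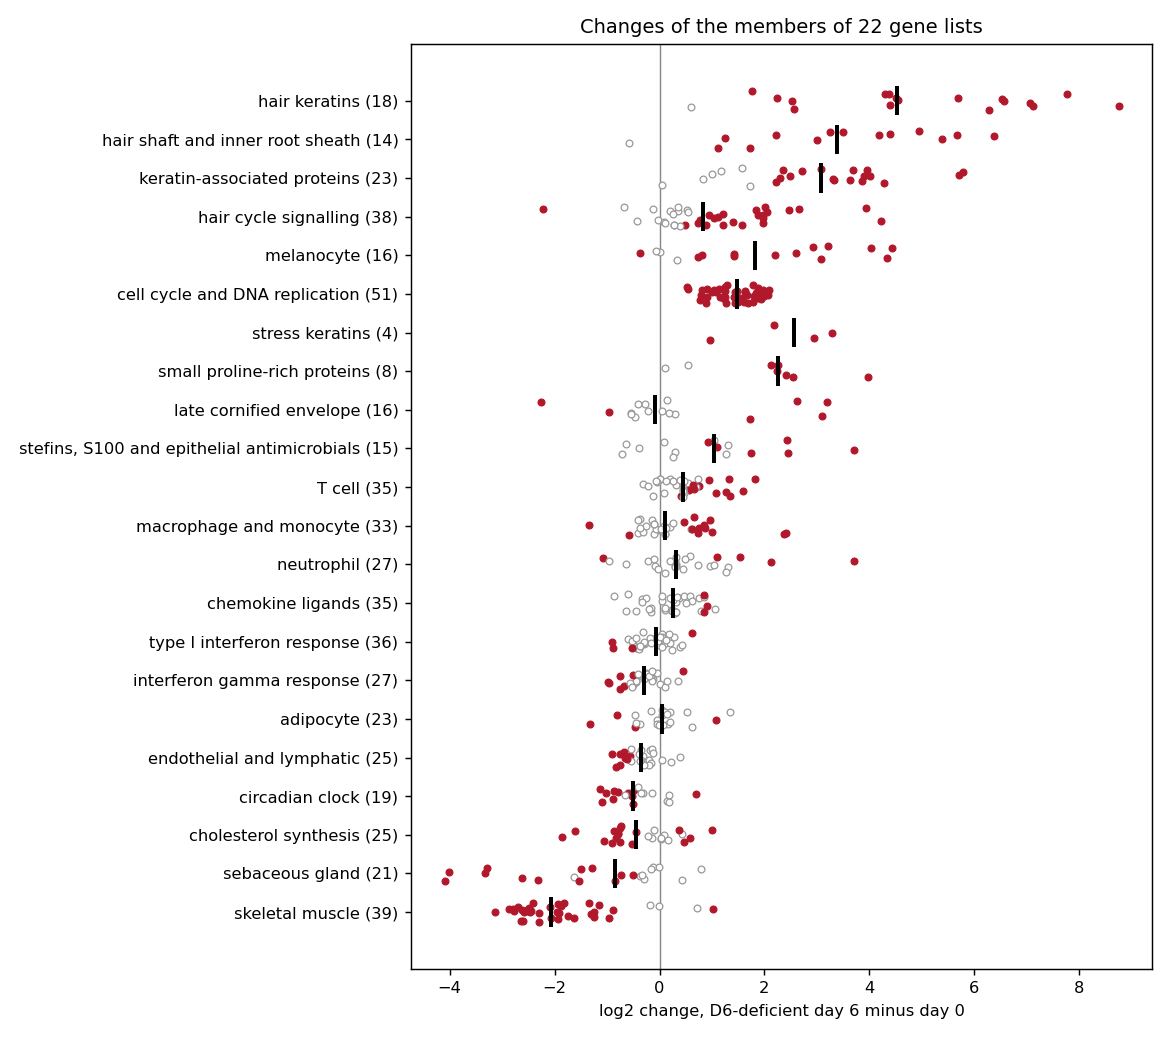
Change from day 0 to day 6 in D6-deficient skin (horizontal axis, log2) of every tested gene of 22 lists, with the number of genes in parentheses. Filled points had an adjusted p under 0.05 (limma), open points did not, and the black bar is the list's median. Hair and cell division lists lie to the right, with medians of 4.53 for hair keratins and 1.48 for the cell cycle, and skeletal muscle lies to the left with a median of −2.07.

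The genes that rose most were those that build a hair. Of the 15 genes with the largest rise, 10 were keratins of the inner root sheath and the shaft or keratin-associated proteins, and 3 others (S100a3, Prr9 and Tchh) belong to the same structures. The largest rise was that of Krt25, a type I keratin of the inner root sheath. It was at 3.91, 3.68 and 4.63 in the 3 day 0 mice and at 12.85, 13.65 and 12.00 in the 3 day 6 mice. The groups lay more than 7 log2 units apart, and the change was 8.76 (SE 0.46), or 432-fold (adjusted p = 1.81e-11). Its partners Krt71 and Krt73, type II keratins of the same sheath, rose by 6.57 (SE 0.52) and 7.76 (SE 0.57). Krt71 was at 5.39, 5.35 and 5.89 on day 0 and at 12.06, 13.39 and 10.90 on day 6. Krt27 and Krt28, further type I keratins of the sheath, rose by 7.07 and 6.53.

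Keratins of the hair shaft itself rose as well. Krt35, made in the matrix and lower cortex, was at 4.57, 4.34 and 4.38 on day 0 and at 11.88, 12.74 and 10.05 on day 6, a change of 7.13 (SE 0.55). Krt85, its early type II partner, was at 5.15, 5.31 and 5.45 and then at 11.09, 12.66 and 9.25, a change of 5.70 (SE 0.58). Krt33a, a keratin of the later cortex, showed a wider spread on day 6, at 9.30, 12.96 and 7.98, against 3.96, 3.71 and 3.74 on day 0. In all these keratins replicate 2 was the highest day 6 mouse and replicate 3 the lowest. Among the 18 hair keratins tested, 17 rose and each of the 17 rose more than 3-fold, against 1.29% of all genes, with a median change of 4.53. The exception, Krt84, had a change of 0.59 (adjusted p = 0.058). Without day 6 replicate 2, 17 still rose, 14 of them more than 3-fold, and in a fit of only the 17 arrays of the higher hybridization control set, which leaves day 0 replicate 1 alone, 9 rose. The unmoderated test that the study's methods name takes the spread of each probe set alone. It was run on only the 6 arrays of the comparison, so it differs from the main fit in both respects. With it 6 rose after Benjamini-Hochberg adjustment.

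The sheath keratins printed here as examples share a promoter feature that the array values did not use. The 150 bases before the annotated start are shown from RefSeq (mouse GRCm38.p6), 5′ to 3′ on the gene's strand, with the TATA box letters TATAAA in capitals. The genes shown moved together, lie in the keratin clusters of chromosomes 11 and 15, and all hold these letters. Krt28, which also rose, is not shown, so the share among hair keratins is to be read from the counts below.
Krt25, chr11:99322952-99323101, minus strand: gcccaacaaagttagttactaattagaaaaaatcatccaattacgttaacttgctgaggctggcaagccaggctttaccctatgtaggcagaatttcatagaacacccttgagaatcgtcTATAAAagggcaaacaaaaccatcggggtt
Krt27, chr11:99351119-99351268, minus strand: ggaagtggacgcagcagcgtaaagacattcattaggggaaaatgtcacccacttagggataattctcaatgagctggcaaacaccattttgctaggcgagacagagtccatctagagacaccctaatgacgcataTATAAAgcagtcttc
Krt71, chr15:101743098-101743247, minus strand: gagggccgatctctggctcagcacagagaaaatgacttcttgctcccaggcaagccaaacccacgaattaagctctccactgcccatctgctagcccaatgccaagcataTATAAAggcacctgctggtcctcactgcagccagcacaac
Krt73, chr15:101802361-101802510, minus strand: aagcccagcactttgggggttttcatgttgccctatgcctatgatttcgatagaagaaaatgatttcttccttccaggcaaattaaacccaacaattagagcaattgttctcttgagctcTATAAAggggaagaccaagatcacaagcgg
Searched on both strands, TATAAA occurred in this window in 10 of the 13 hair keratins with an entry in the promoter table (76.9%) and in 2184 of all 27025 genes (8.08%). Of the keratin-associated proteins that passed the low-level filter and had an entry, 18 of 20 held it (90%). A match describes the letters in the window and is not evidence of a working site.

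Keratin-associated proteins form the matrix between the keratin filaments of the shaft and are made late in its assembly. This family was grouped by its symbols after values had been seen. Of 23 tested, 17 rose more than 3-fold, with a median change of 3.08. Krtap11-1 was at 4.02, 4.12 and 4.23 on day 0 and at 9.14, 13.25 and 7.35 on day 6, and Krtap13-1 was at 4.08, 4.14 and 3.85 and then at 6.98, 11.80 and 5.16. The day 6 mice differed widely: the mean level of the family was 10.12 in the highest mouse, replicate 2, and 4.77 in the lowest, against 4.03 to 4.08 on day 0. Krtap15 is an example in which 1 mouse carried the mean, at 4.04, 10.93 and 3.30 on day 6 against 3.20 to 3.60 on day 0. Without day 6 replicate 2, 12 of the 23 rose, 10 of them more than 3-fold, and the median change was 1.27, and in the fit of the 17 arrays 1 rose. With the unmoderated test 0 rose.

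Other proteins of the shaft and sheath followed. Of 14 tested, 13 rose, 11 of them more than 3-fold, while 6 rose in the fit of the 17 arrays and 0 with the unmoderated test. Tchh encodes trichohyalin, which hardens the inner root sheath and medulla. It was at 4.98, 4.73 and 6.18 on day 0 and at 10.61, 12.05 and 9.41 on day 6, a change of 5.39 (SE 0.56). Padi3, the enzyme that converts arginines of trichohyalin to citrulline, rose by 4.40 (SE 0.59), and S100a3, a calcium-binding protein of the hair cuticle, by 6.38 (SE 0.67).

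Regulators of hair growth rose less than the structural genes. Of 38 genes of the hair cycle signalling list 22 rose, 11 of them more than 3-fold, and 1 fell. Shh, the signal that the growing matrix sends to its surroundings, was at 5.66, 5.55 and 5.34 on day 0 and at 10.37, 10.28 and 8.58 on day 6, a change of 4.23 (SE 0.47, adjusted p = 4.85e-07). Gli1 and Ptch1, which are switched on by Shh, rose by 2.01 (SE 0.40) and 1.21 (SE 0.31). The matrix transcription factors Msx2, Hoxc13, Dlx3 and Foxn1 rose by 3.94, 2.66, 2.46 and 1.88, and Lef1, which carries the Wnt signal to the hair keratin genes, by 1.97 (SE 0.34). Corin, a protease of the dermal papilla, the cluster of fibroblasts at the base of the follicle, was at 3.27, 3.23 and 3.38 on day 0 and at 6.27, 5.79 and 3.76 on day 6. The gene that fell was Fgf18, a growth factor known to hold follicles at rest, at 6.23, 6.71 and 6.74 on day 0 and 3.97, 4.23 and 4.82 on day 6. Bmp2, Bmp4 and Fgf7 had changes of −0.43, 0.20 and −0.03, and none of the 3 passed the test. Without day 6 replicate 2, 15 genes of the list rose, 6 of them more than 3-fold, and the median change fell from 0.83 to 0.50. In the fit of the 17 arrays 2 rose, and with the unmoderated test 0 did.

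Pigment genes rose with the hair genes. Of the 16 melanocyte genes tested 12 rose, 8 of them more than 3-fold, and 1 fell, while 4 rose in the fit of the 17 arrays and 0 with the unmoderated test. Tyr encodes tyrosinase, the first enzyme of melanin synthesis. It was at 3.71, 3.72 and 3.88 on day 0 and at 8.71, 9.47 and 6.41 on day 6, a change of 4.43 (SE 0.62). Mlana, Si (the silver gene, which encodes the fibril protein of the melanosome), Dct and Tyrp1 rose by 4.33, 4.03, 3.22 and 3.07. The melanocyte transcription factors did not follow them: Mitf had a change of 0.01 (adjusted p = 0.97) and Sox10 fell by 0.37 (SE 0.12). The fall of Sox10 no longer passed without day 0 replicate 1 or 2, or without day 6 replicate 2 or 3. Over the hair follicle and melanocyte lists together 81 genes rose. Day 6 replicate 2 was the highest mouse for 71 of them and replicate 3 the lowest for 79.

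**Figure D2:**
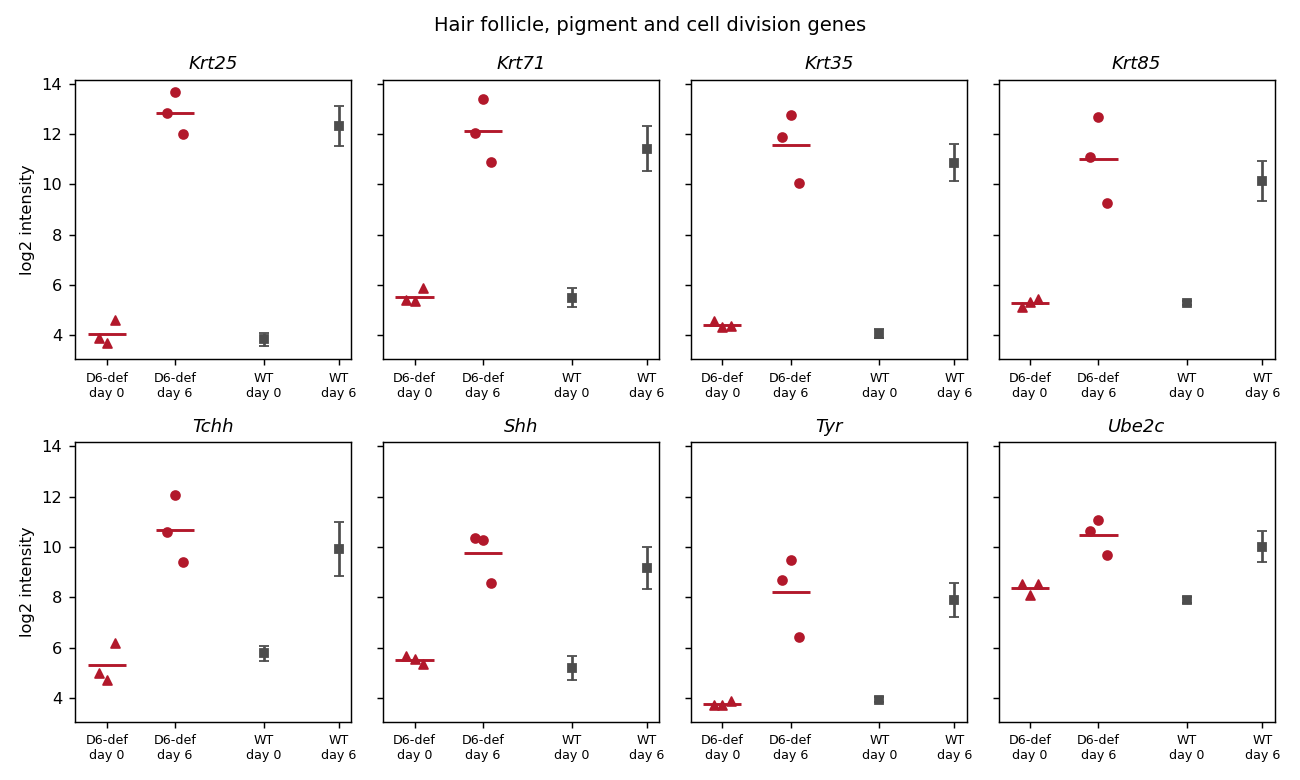
Log2 intensity (vertical axes) of 8 genes in the 3 D6-deficient mice of day 0 (triangles) and of day 6 (circles), with a line at each group mean, and the WT mean with its SD (squares, 3 mice a group). Krt25 moves from at most 4.63 to between 12.00 and 13.65.

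The hair genes were not high throughout the days after TPA. The mean level of the hair keratins was 4.74 to 4.90 in the D6-deficient mice of day 0, 8.06 to 8.82 on day 1, 4.69 to 4.81 on day 2, 5.07 to 5.11 on day 4 and 8.03 to 11.64 on day 6. The list was thus high on days 1 and 6 and near its day 0 level on days 2 and 4. Against the same day 0 arrays, 13 of the 18 hair keratins rose on day 1, 1 on day 2, 2 on day 4 and 17 on day 6. Krt25 averaged 12.46 on day 1, 3.82 on day 2, 4.19 on day 4 and 12.83 on day 6. Shh averaged 10.06, 5.51, 5.67 and 9.74 on these days. The keratin-associated proteins did not share the day 1 peak: 0 of 23 rose on days 1, 2 and 4, and their mean level on day 1 was 4.25 to 4.89. WT mice had the same order of days, with hair keratins at 4.75 to 4.91 on day 0, 6.41 to 8.56 on day 1, 4.75 to 4.90 on day 2, at most 5.17 on day 4 and 7.90 to 9.24 on day 6. Each day was sampled from different mice.

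**Figure D3:**
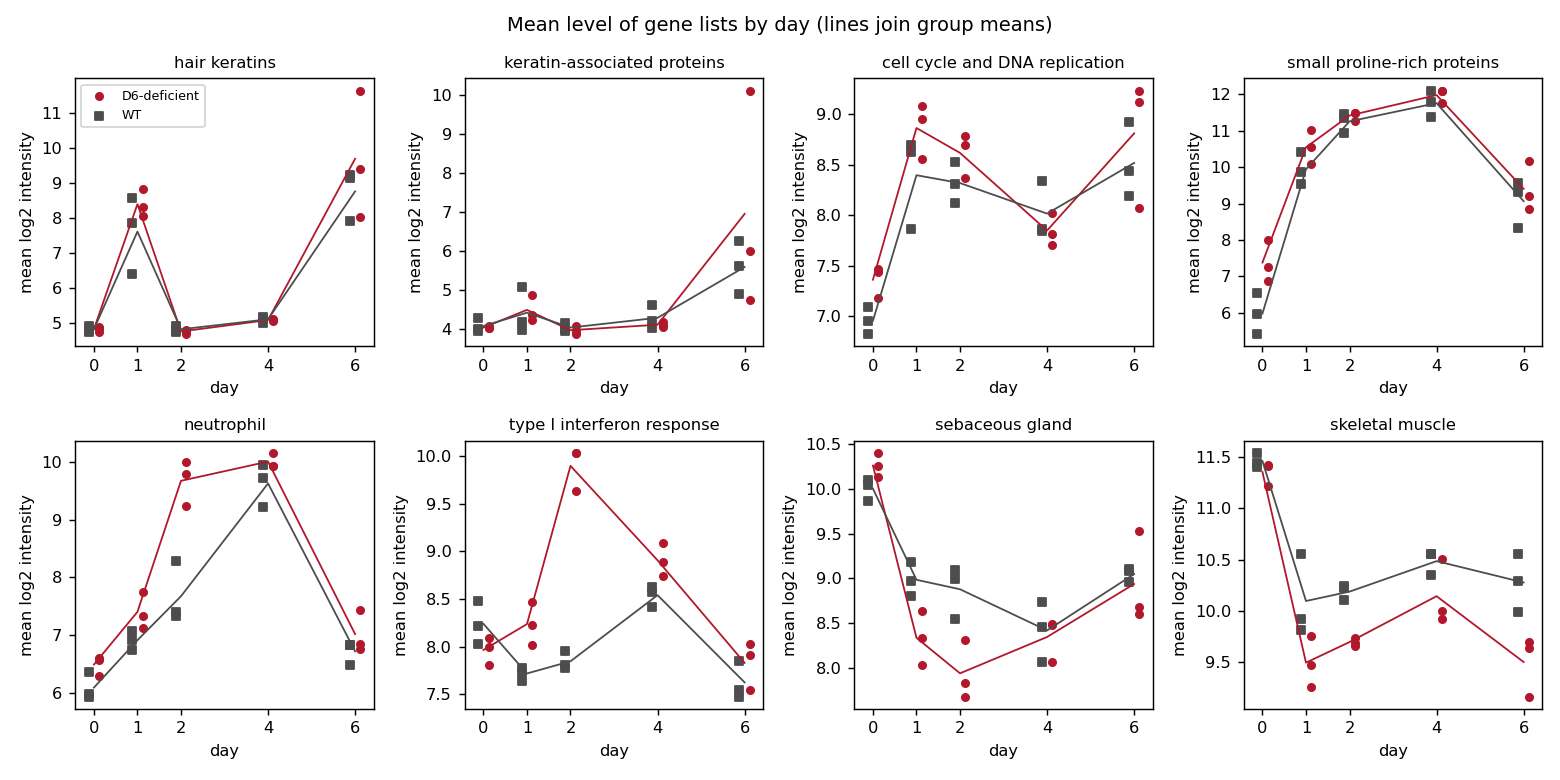
Mean log2 intensity of 8 gene lists (vertical axes) in each mouse by day (horizontal axes), D6-deficient in red circles and WT in grey squares, with lines through the group means. Hair keratins are high on days 1 and 6 only, neutrophil genes are highest on day 4, and skeletal muscle is lower than on day 0 on every later day.

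Genes of cell division rose as a group. All 51 tested genes of the cell cycle and DNA replication list rose, against 18.5% of all genes, and 21 rose more than 3-fold, with a median change of 1.48 and a range from 0.52 (E2f1) to 2.08 (Ube2c). Ube2c, which helps to mark mitotic proteins for destruction, was at 8.53, 8.09 and 8.53 on day 0 and at 10.64, 11.08 and 9.67 on day 6 (SE 0.34, adjusted p = 6.73e-05). Ccnb2, a cyclin of mitosis, was at 7.63, 7.30 and 7.58 and then at 9.72, 10.14 and 8.65, a change of 2.00 (SE 0.35). In neither gene did the groups overlap. Its kinase Cdk1 rose by 1.86 (SE 0.31), the replication helicase subunit Mcm5 by 1.96 (SE 0.24), and Top2a, which untangles chromosomes, by 1.78 (SE 0.33). Mki67, the usual marker of cycling cells, rose by 1.21 (SE 0.33). For 50 of the 51 genes day 6 replicate 3 was the lowest of the day 6 mice, as it was for most hair genes. Without day 6 replicate 2, 10 genes rose more than 3-fold, and without replicate 3, 34 did. In the fit of the 17 arrays, which holds 1 day 0 mouse, 6 of the 51 rose, and with the unmoderated test 0 rose. On days 1, 2 and 4, against the same day 0 mice, 51, 45 and 20 of these genes rose, with median changes of 1.50, 1.29 and 0.52.

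The promoters of this group differed from those of the hair keratins. The same window is printed for Ccnb2, Cdk1 and Top2a, the cyclin, its kinase and the topoisomerase described above. Capitals mark the CCAAT box (CCAAT, or ATTGG when it lies on the other strand) and the cell cycle homology element (TTTGAA, or TTCAAA). In many cell cycle promoters they stand together. The Ccnb2 window holds the CCAAT box only.
Ccnb2, chr9:70421555-70421704, minus strand: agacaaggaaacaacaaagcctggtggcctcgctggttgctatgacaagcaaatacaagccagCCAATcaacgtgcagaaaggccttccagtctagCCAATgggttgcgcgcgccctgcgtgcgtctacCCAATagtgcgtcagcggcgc
Cdk1, chr10:69352913-69353062, minus strand: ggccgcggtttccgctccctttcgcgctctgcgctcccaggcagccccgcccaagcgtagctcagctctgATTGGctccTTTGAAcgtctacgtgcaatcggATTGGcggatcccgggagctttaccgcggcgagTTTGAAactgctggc
Top2a, chr11:99024190-99024339, minus strand: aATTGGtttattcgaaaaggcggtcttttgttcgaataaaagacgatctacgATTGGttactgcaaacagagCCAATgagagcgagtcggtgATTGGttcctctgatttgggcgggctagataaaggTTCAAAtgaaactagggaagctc
CCAAT occurred in 28 of the 39 cell cycle genes with an entry (71.8%), against 25.3% of all genes, and TTTGAA in 7 of 39 (17.9%), against 9.24%. TATAAA occurred in 0 of the 39. The longer letters CTTTGAA, which contain TTTGAA and are bound by Lef1 and its relatives, occurred in 1 of the 13 hair keratins (7.69%) and in 2.49% of all genes.

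Stress keratins and small proline-rich proteins, known from inflamed epidermis, were still raised on day 6. In whole-skin RNA the part of the skin in which they rose, epidermis or hair follicle, was not tested. The 4 stress keratins all rose, 3 of them more than 3-fold. Krt6b was at 9.42, 8.21 and 11.75 on day 0 and at 12.90, 13.98 and 12.39 on day 6, a change of 3.30 (SE 0.79), and its partner Krt16 rose by 2.95 (SE 0.54). The spread on day 0 was wide, with replicate 3 the highest of the day 0 mice. Of the 8 small proline-rich proteins, which cross-link into the cornified envelope, 6 rose, all more than 3-fold. In the fit of the 17 arrays 1 stress keratin and 2 of the 8 small proline-rich proteins rose, with the unmoderated test 0 of either, and without day 6 replicate 2, 4 of the 8. Sprr1b was at 7.82, 7.28 and 7.95 and then at 11.54, 12.66 and 10.76, a change of 3.97 (SE 0.54). The 3 probe sets shared by Sprr2a1 and its near copies changed by 2.40 to 3.52, but they cannot assign the signal to one copy. In the late cornified envelope family the members went both ways. Lce3a, Lce3b, Lce3c and Lce3f, of the group known to respond to injury, rose by 1.72 to 3.20. Lce1m and Lce1l, of the group of resting epidermis, fell by 2.25 and 0.96, and the other 10 of 16 did not pass. Of the family 0 fell without day 6 replicate 2, and 5 without replicate 3.

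Proteins of the skin barrier moved little as a group: 7 of 30 rose and 3 fell, with a median change of 0.20. Klk6, a protease of the upper epidermis, was at 7.34, 6.71 and 7.85 on day 0 and at 10.38, 10.49 and 9.89 on day 6, a change of 2.95 (SE 0.33). Casp14, a protease of terminal differentiation, rose by 1.69, and Elovl4, which elongates the very long fatty acids of barrier ceramides, fell by 1.75 (SE 0.23). Flg (0.98), Ivl (0.46) and Lor (−0.40), the classical differentiation markers, did not pass. Among antimicrobial and protease inhibitor genes 6 of 15 rose (3 without day 0 replicate 1), led by the cysteine protease inhibitor Stfa2l1 with 3.70 (SE 0.41). S100a8 and S100a9, alarm proteins of neutrophils and inflamed keratinocytes, had changes of 1.04 (adjusted p = 0.19) and 1.27 (adjusted p = 0.10). The basal keratins Krt5 and Krt14 had changes of −0.27 and −0.03, while Krt15, a keratin of the follicle bulge and basal layer, fell by 1.24 (SE 0.29). On day 0 the D6-deficient mice already stood above WT mice in the stress keratins by a median of 1.81 and in the small proline-rich proteins by 1.53. With the day 0 mice of both genotypes as controls, 16 of the 30 barrier genes rose.

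Skeletal muscle genes fell as a group. Of 39 tested, 35 fell, against 14.7% of all genes, and 28 fell more than 3-fold, with a median change of −2.07, and 1 rose. Neb encodes nebulin, which sets the length of the thin filament. It was at 11.19, 10.89 and 11.02 on day 0 and at 8.30, 7.38 and 7.98 on day 6, a change of −3.15 (SE 0.30, adjusted p = 7.23e-08). Ryr1, the calcium release channel, and Ttn, the giant spring protein titin, had changes of −2.69 and −2.87, and of −3.23 each on another probe set. Pygm, the glycogen phosphorylase of muscle, and Des, the muscle intermediate filament desmin, had changes of −2.78 (SE 0.25) and −2.59 (SE 0.20). Acta1, the actin of the thin filament, fell less, by 0.96, from 14.36, 14.35 and 14.46 to 13.53, 13.02 and 13.75. Tnnt1, the slow troponin T, was the gene that rose, by 1.02 (SE 0.31), but it did not pass without day 6 replicate 1. The count of 35 falls was the same without any 1 of the 6 mice, 34 in the fit of the 17 arrays with its 1 day 0 mouse, and 21 with the unmoderated test.

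Of the 15 genes with the largest fall 9 are known from muscle: Mylk4, Asb15, Ryr1, Ttn, Trim63, Txlnb, Neb, Lmod2 and Lmod3. Trim63 encodes MuRF1, a ubiquitin ligase of wasting muscle. It fell by 3.20 (SE 0.25). Mylk4, a kinase of the myosin light chain family, was at 9.61, 9.24 and 10.03 and then at 5.20, 4.86 and 6.02. Pdk4, which turns fuel use from glucose to fat and is abundant in muscle, had a change of −3.15 (SE 0.50). The window before the start is shown for 3 of the muscle genes that hold the E box letters CAGCTG in it. These letters, in capitals, read the same on both strands and are bound by MyoD and its relatives.
Des, chr1:75360142-75360291, plus strand: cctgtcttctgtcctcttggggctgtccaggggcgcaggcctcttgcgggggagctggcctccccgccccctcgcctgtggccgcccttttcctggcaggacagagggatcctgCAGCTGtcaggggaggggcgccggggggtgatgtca
Pygm, chr19:6384258-6384407, plus strand: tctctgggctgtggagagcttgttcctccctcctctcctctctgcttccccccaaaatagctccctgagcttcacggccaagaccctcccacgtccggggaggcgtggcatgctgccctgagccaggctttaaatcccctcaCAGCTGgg
Trim63, chr4:134314970-134315119, plus strand: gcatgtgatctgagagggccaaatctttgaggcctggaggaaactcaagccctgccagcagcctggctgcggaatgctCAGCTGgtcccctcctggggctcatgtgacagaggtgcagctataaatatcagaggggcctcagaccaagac
CAGCTG occurred in 9 of the 29 muscle genes with an entry (31.0%) and in 8.21% of all genes, and in 0 of the 13 hair keratins and 0 of the 39 cell cycle genes.

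The mean level of the muscle list was 11.22 to 11.43 on day 0 and 9.16 to 9.70 on day 6. It was also lower than on day 0 on the days between, at 9.25 to 9.75 on day 1, 9.66 to 9.74 on day 2 and 9.92 to 10.51 on day 4. Genes of fat, the other deep tissue of the skin, did not shift with it: the adipocyte list stood at 10.71 to 11.06 on day 0 and at 10.50 to 11.37 on day 6, and 1 of its 23 genes rose and 3 fell. Adipoq had a change of −0.06 and Lep of 0.16. Muscle is a tissue of its own under the dermis, and 35 of its 39 markers were lower on all 3 day 6 arrays than on any day 0 array, as were 20.6% of all probe sets tested. It fell on the same arrays on which the hair and cell cycle lists rose, and its part in the other changes was not tested.

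Lipid genes of the sebaceous gland fell. Of 21 tested 12 fell, 6 of them more than 3-fold, and 0 rose, while 7 fell in the fit of the 17 arrays and 1 with the unmoderated test. Scd3, a fatty acid desaturase of the gland, had the largest fall of all genes on 1 of its 2 probe sets, from 9.43, 10.34 and 10.08 to 4.86, 4.41 and 7.63, a change of −4.32 (SE 0.53, adjusted p = 2.20e-06). The other probe set changed by −4.10. Cyp2g1, a cytochrome P450, was at 12.12, 9.80 and 11.69 and then at 6.07, 7.43 and 8.03. Far2, which makes the fatty alcohols of wax esters, and Fa2h, which hydroxylates fatty acids, had changes of −3.32 (SE 0.66) and −3.30 (SE 0.45). Day 6 replicate 3 was the highest of the 3 mice for Scd3, Far2 and Fa2h. Both Scd1 and Pparg, known well from the gland, did not pass, at −0.13 and −0.02. Of 25 genes of cholesterol synthesis 13 fell and 4 rose (2 without day 0 replicate 2 or 3 or day 6 replicate 3), and Sc4mol, an enzyme of the path, had a change of −1.62 (SE 0.21). Of 25 genes of fatty acid synthesis 8 fell and 3 rose. Of them 3 fell without day 6 replicate 2, and 12 without replicate 3. Acacb fell by 2.21 and Fads2, a desaturase, rose by 1.92 (SE 0.27).

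**Figure D4:**
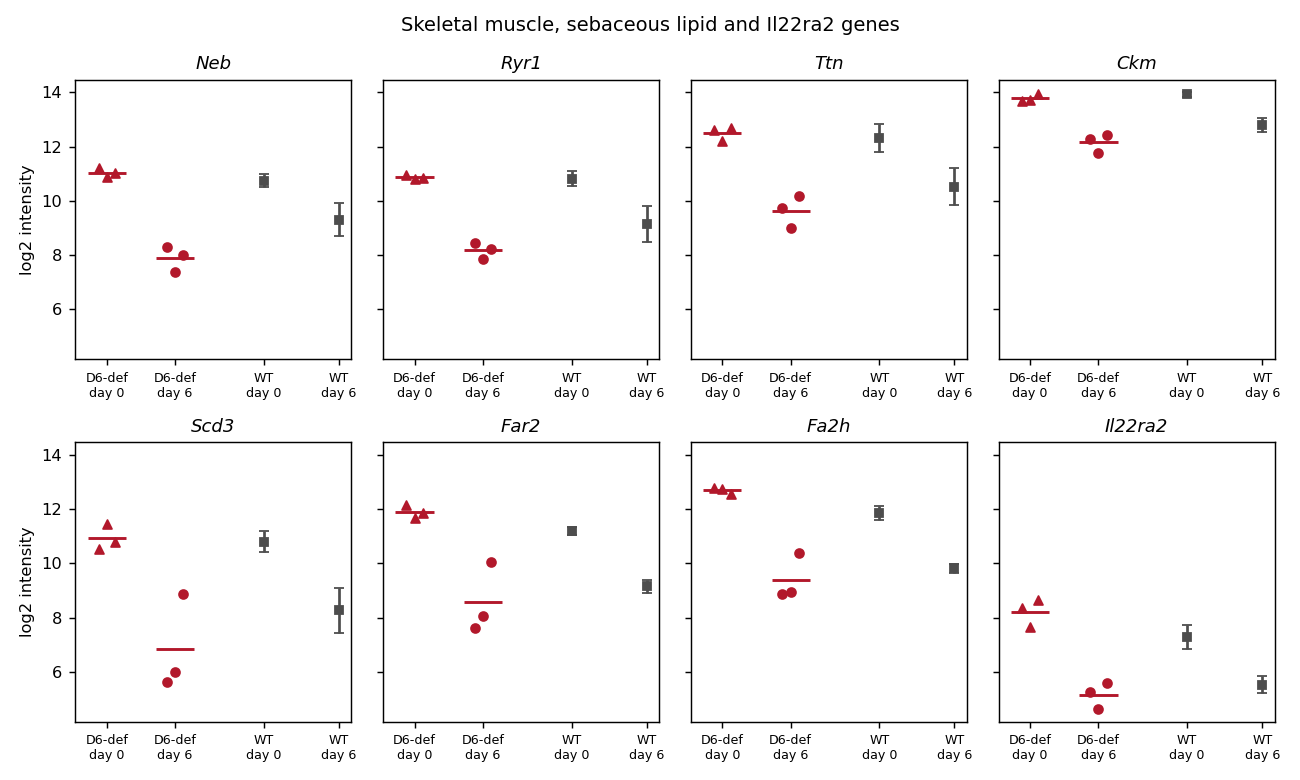
Log2 intensity (vertical axes) of 8 genes that fell in D6-deficient skin, with the 3 mice of day 0 (triangles) and of day 6 (circles), a line at each group mean, and the WT mean with its SD (squares, 3 mice a group), each gene on its probe set of highest mean. In Scd3, Far2 and Fa2h the day 6 mouse at the right, replicate 3, stands above the others.

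Genes of neutrophils and of the type I interferon response were much nearer to their day 0 level than on the days before. Of 27 neutrophil genes 4 rose and 1 fell on day 6, with a median change of 0.32, whereas 23 rose on day 4 with a median of 4.14. The mean level of the list was 6.29 to 6.60 on day 0, 9.94 to 10.15 on day 4 and 6.76 to 7.44 on day 6. Ngp, a protein of neutrophil granules, was at 4.68, 5.13 and 4.67 on day 0 and at 6.49, 8.31 and 6.04 on day 6, a change of 2.12 (SE 0.80, adjusted p = 0.046). Of 36 genes of the type I interferon response all rose on day 2, with a median of 1.94, while on day 6 1 rose and 3 fell, with a median of −0.07. Rsad2 and Oas2, antiviral genes of this list, fell by 0.90 and 0.89. Of 27 genes of the interferon gamma response 1 rose and 6 fell. The falls depended on single mice: 17 of these 27 genes fell without day 6 replicate 3 (median −0.54), and 2 without day 6 replicate 2 or without day 0 replicate 3. Of the type I genes 1 to 6 fell with 1 mouse left out, and of the neutrophil genes 2 to 5 rose, with 2 without day 0 replicate 1.

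Chemokines, the ligands that D6 handles among them, rose in smaller number than on day 4. Of 35 ligands 23 rose on day 4 and 3 on day 6, or 5 without day 6 replicate 1 or 2. The 3 were Ccl8, Cxcl12 and Cxcl14. Ccl8, a CC chemokine, was at 12.88, 13.27 and 12.79 on day 0 and at 13.84, 13.73 and 13.91 on day 6, a change of 0.85 (SE 0.13, adjusted p = 3.39e-05). Cxcl12 rose by 0.84 (SE 0.11) and Cxcl14 by 0.91 (SE 0.25). Ccl2 had a change of 0.31 and Cxcl2 of 0.63, and neither passed. Among 21 receptors 6 rose, led by Cxcr6, found on T cells, with 1.33 (SE 0.26), and including Ccr3 of eosinophils with 1.05. The receptors that fell, Cxcr7 (−1.19), Darc (−1.05) and Ccbp2, all encode atypical receptors.

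The D6 gene itself was read by 3 probe sets. One of them separated the genotypes on day 6 most, at 3.57, 3.47 and 3.33 in D6-deficient mice against a WT mean of 4.62 (difference −1.16, adjusted p = 0.063), and it had a change of 0.03 from day 0. Another had a change of 0.16 (adjusted p = 0.61). The brightest, which gave the fall counted above, went from 7.99, 8.05 and 8.09 to 7.12, 6.62 and 7.45, a change of −0.98 (SE 0.25), and its mean on day 6 differed from that of WT mice by −0.01. How these probe sets lie relative to the deleted part is not given in the sources used here, so the last is no check of the genotype.

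Some markers of T cells and macrophages rose. Of 35 T cell genes 12 rose and 0 fell, against 18.5% and 14.7% of all genes, with a median change of 0.45. With 1 mouse left out 10 to 15 rose. Under some other settings fewer than 10 did, and the median change lay between 0.31 and 0.60 over the alternatives. In WT mice 18 rose, with a median of 0.64. The mean level of the list was 6.17 to 6.40 on day 0 and 6.58 to 7.25 on day 6, with replicate 3 the highest. Cd5, a receptor on T cells, was at 4.14, 4.44 and 4.62 and then at 6.13, 5.91 and 6.65, a change of 1.83 (SE 0.24). Lck, the kinase of the T cell receptor, rose by 1.59 (SE 0.18) and Cd3d by 1.34 (SE 0.25), while Cd3e had a change of 0.00. Of 33 macrophage genes 11 rose and 2 fell, against 18.5% and 14.7% of all genes, with a median change of 0.11. The list went both ways, with 19 changes above 0 and 14 below, from −1.34 to 2.41. With 1 mouse left out 8 to 11 of its genes rose and 1 to 4 fell. With the day 0 mice of both genotypes as controls, 8 rose and 7 fell, and the median was −0.05. Examples of those that rose were Chi3l3, a chitinase-like protein of alternatively activated macrophages, by 2.41 (SE 0.50), and C1qb by 0.86 (SE 0.18). Fcer1g, the shared chain of the Fc receptors, rose by 0.96 (SE 0.16). Fcer1a, the IgE receptor chain of mast cells and basophils, was at 3.75, 3.98 and 3.91 on day 0 and at 6.31, 5.93 and 6.56 on day 6, a change of 2.39 (SE 0.48). It was the 1 gene of the 17 on the mast cell list that rose, and 2 fell. None of 12 natural killer cell genes passed in either direction. Of 25 endothelial genes 8 fell and 0 rose, with Kdr, the main VEGF receptor, at −0.90 (SE 0.19). The endothelial count was 4 without day 6 replicate 2 and 13 without replicate 3.

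Cytokine genes moved in small numbers. In the IL-1 family 5 of 20 rose (3 without day 0 replicate 2) and 2 fell. Il1f8 and Il1f6, epidermal members of the IL-36 group, rose by 1.45 (SE 0.32) and 1.28 (SE 0.44). Il22ra2, the soluble receptor that neutralizes IL-22, was at 8.37, 7.65 and 8.64 on day 0 and at 5.24, 4.63 and 5.58 on day 6, a change of −3.07 (SE 0.32, adjusted p = 1.89e-07). Of the 15 genes of the IL-17, IL-22 and IL-23 list 4 fell and 0 rose, and Nfkbiz was among those that fell, by 1.13 (SE 0.23). Il20 fell by 1.32 (SE 0.30) and Il31ra by 1.61 (SE 0.34). Il20 was at 6.89, 5.46 and 5.44 on day 0, so that 1 mouse stood above the others. Among 13 ligands and regulators of the EGF receptor 1 rose and 4 fell. Areg rose by 1.48 (SE 0.39), but it did not pass without day 6 replicate 2. Btc had a change of −2.89 (SE 0.43) and Egf of −1.55 (SE 0.18). Genes of the immediate early response (9 of 20 fell, 1 rose), the circadian clock (10 of 19 fell, 6 without day 6 replicate 1 or 2, and 1 rose) and glycolysis (9 of 20 fell, 1 rose) were mostly lower where they passed. Examples were Nr4a1, an orphan receptor induced within minutes of stimulation, at −1.78, and the clock gene Tef at −1.02. The time of day at which skin was taken is not given in the sources used here.

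Of 21 collagens 5 rose and 1 fell, a share of rises near that of all genes. Without day 0 replicate 3, 1 rose and 2 fell. Col11a1, a fibrillar collagen best known from cartilage, was at 4.05, 3.77 and 4.47 on day 0 and at 8.63, 9.65 and 6.73 on day 6, a change of 4.24 (SE 0.58). Col17a1, the collagen that anchors basal keratinocytes, fell by 1.43 (SE 0.20). Lrrc15, a membrane protein of fibroblasts in remodelling tissue, was among the 15 largest rises with 5.24 (SE 0.48). Cthrc1, a secreted protein of active fibroblasts, was at 6.92, 6.91 and 6.22 and then at 8.59, 9.22 and 8.87, a change of 2.21 (SE 0.33). The cellular retinol-binding protein Rbp2 rose by 2.34 (SE 0.23), and Cyp26b1, which degrades retinoic acid, fell by 1.47 (SE 0.20).

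Whether day 6 looked different in D6-deficient and WT mice was tested as the difference between the 2 changes. It was called for 1 of 36029 probe sets (0.00278%), and 9 reached an adjusted p under 0.05. At an unadjusted p under 0.05 there were 2886. Of the 766 probe sets called in D6-deficient skin, 765 had the same sign in WT mice and 678 also passed there at an adjusted p under 0.05. The change was larger in D6-deficient mice for 426 of the 446 lower and 223 of the 320 higher probe sets, a comparison that favours the genotype in which they were selected. Across the called probe sets the 2 changes had a Pearson r of 0.951, and across all tested 0.828, which describe probe sets that are not independent. WT skin had 483 called probe sets, 288 higher and 195 lower.

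**Figure D5:**
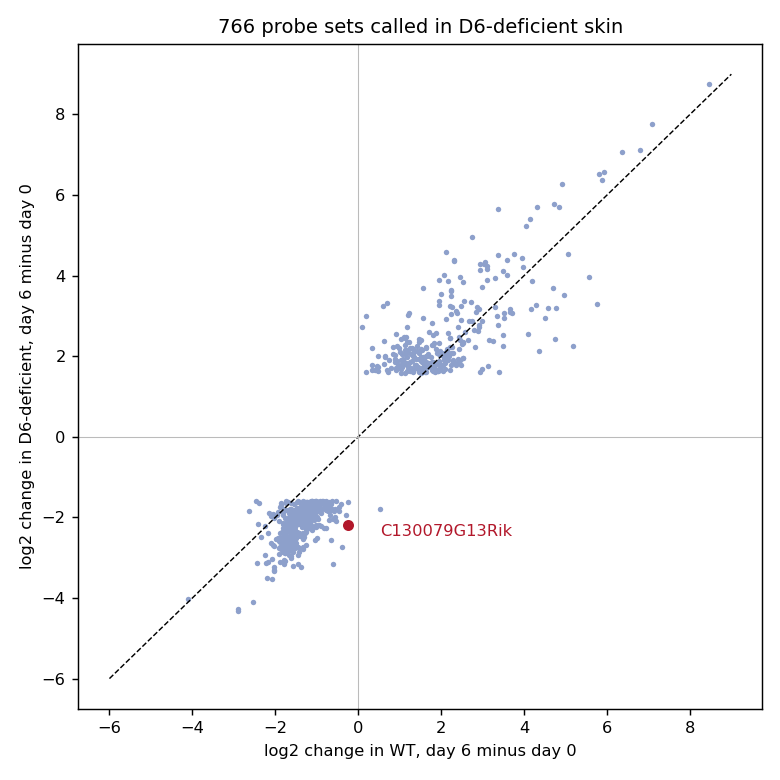
Log2 change from day 0 to day 6 in D6-deficient skin (vertical axis) against that in WT skin (horizontal axis) for the 766 probe sets called in D6-deficient skin, with the dashed line of equal change. All but 1 have the same sign in both genotypes, and C130079G13Rik, in red, is the 1 probe set whose difference between genotypes was called.

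No listed gene passed the test of the difference, but the lists did not all move alike in both genotypes. Of the type I interferon genes 18 fell in WT and 3 in D6-deficient mice, with medians of −0.52 and −0.07. Macrophage genes had medians of −0.32 in WT mice, where 2 rose and 9 fell, and 0.11 in D6-deficient mice. In WT mice 11 of 16 late cornified envelope genes and 10 of 35 chemokine ligands rose, against 4 and 3 in D6-deficient mice. The genotypes already stood apart on day 0 in the first 3 of these lists. D6-deficient mice differed from WT mice there by medians of −0.26 (interferon), −0.33 (macrophage) and 0.63 (late cornified envelope), and by 0.07 in chemokine ligands. The day 6 mean levels of the genotypes overlapped in each of these lists, for interferon at 7.55 to 8.03 in D6-deficient and 7.48 to 7.85 in WT mice. Hair keratins had a median change of 4.53 in D6-deficient and 3.56 in WT mice, where 13 of 18 rose, and the change was larger in D6-deficient mice for 18 of 18. Without day 6 replicate 2 the D6-deficient median was 3.28, below that of WT mice. The lowest adjusted p of the difference among them was 0.47. Keratin-associated proteins had medians of 3.08 and 1.22, with 5 of 23 rising in WT mice. Muscle genes had medians of −2.07 and −1.21, with 34 of 39 falling in WT mice and a larger change in D6-deficient mice for 37, and the lowest adjusted p of a difference was 0.14. The day 6 level of the muscle list was 9.16 to 9.70 in D6-deficient and 9.99 to 10.56 in WT mice, which do not overlap. Cell cycle genes had medians of 1.48 and 1.59, and 50 of 51 rose in WT mice. Stress keratins changed less in D6-deficient mice for all 4 genes, with medians of 2.56 and 3.47, beside the higher day 0 level given above. Pdk4 changed by −3.15 in D6-deficient mice and by −0.62 in WT mice, with an SE of 0.50 in each. Cthrc1 changed by 2.21 and 0.33 and Fcer1a by 2.39 and 0.62, and none of these 3 differences passed.

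The probe set with a called difference belonged to C130079G13Rik, a transcript named by its clone. It was at 7.16, 7.33 and 7.42 in D6-deficient mice on day 0 and at 5.33, 4.63 and 5.36 on day 6, while WT mice were at 5.35 ± 0.21 and 5.10 ± 0.16 (SD, n = 3). The difference of the changes was −1.95 (SE 0.29, adjusted p = 0.00835, limma). The genotypes differed on day 0, and on day 6 their means were 0.01 apart. Compared directly on day 6, 6 of 36029 probe sets were called between the genotypes (0.0167%) and 45 had an adjusted p under 0.05, against 3015 at an unadjusted p under 0.05. Lower in D6-deficient mice were Lztfl1 (−2.83), 2010315B03Rik (−2.56), Apod (−2.89), Cacna2d1 (−2.11) and Giyd2 (−1.66), and BC023969 was higher (2.18). Lztfl1, which encodes a protein of cilia and lies on the same chromosome as the D6 gene, was at 2.83, 3.15 and 3.06 in D6-deficient mice and 5.84 ± 0.32 in WT mice (SD, n = 3). Of these 6 the 4 lower ones other than Giyd2 also differed on day 0, by −1.90 to −3.98. Giyd2 differed by −0.06 on day 0, and its WT mice rose from 3.46 to 5.04 while D6-deficient mice were at 3.41 and 3.38.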

How the data were processed

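RNA of whole back skin from 30 mice was hybridized to Affymetrix Mouse430_2 arrays, 1 array per mouse as the study describes it, in 10 groups of 3. The deposited values are linear probe set intensities that the authors made with RMA in GeneSpring GX. Log2 was taken here. The 64 control probe sets were left out, as was the lowest 20% by mean over all arrays (9008 of 45037), and 36029 probe sets were tested. Differences were fitted with limma 3.58.1 in R 4.3.3 (lmFit, eBayes) with 1 mean per group, the difference of changes between genotypes as an interaction, and two-sided p-values adjusted by Benjamini-Hochberg over all probe sets tested. Calls needed an adjusted p below 0.05 and a change of more than 3-fold. With 3 arrays against 3, the number of arrays limits the precision. The p-values rest on 1 spread per probe set, pooled over all 10 groups and moderated across probe sets. They do not measure the spread of the 6 arrays alone. Krtap11-1, for example, had an SD of 0.10 on day 0 and 3.03 on day 6, with an SE of 0.85. The test was also run on simulated data. Named genes were the 15 with the largest rise and the 15 with the largest fall among called probe sets of 1 symbol whose groups did not overlap. The comparison and the gene lists were chosen with earlier results of these data known, and the keratin-associated list after its values were seen. Markers of other cell types were among the lists. The replicate numbers did not pair the D6-deficient samples of day 0 and day 6 (correlations of deviations 0.087, −0.137 and 0.062). Between the genotypes on day 6 these correlations were 0.274, 0.378 and 0.084, and the main fit used no pairing. Alternatives covered filters, scaling, tests, weights, covariates and omitted arrays. Figures were drawn with matplotlib 3.10.9 in Python 3.11.15. Some genes are not reported here.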

Additional observations from a re-analysis of the deposited data

Results flagged for a closer look

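The 9 probe sets below were singled out because the change from day 0 to day 6 differed between D6-deficient and WT mice in the limma test of that difference (adjusted p under 0.05). Values are the D6-deficient change minus the WT change in log2 units. The genotypes also differed on day 0 in all 9 at an adjusted p under 0.05.

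C130079G13Rik differed by −1.95 (adjusted p = 0.00835), with changes of −2.20 in D6-deficient and −0.25 in WT mice. A probe set with no symbol in the annotation used differed by −1.33, at −1.23 and 0.10. Tkt, the transketolase of the pentose phosphate pathway, differed by 1.55, at 0.89 and −0.66. Ptplad2, of the family of acyl-CoA dehydratases, differed by 1.53, at 0.56 and −0.97. Another probe set with no symbol differed by 1.51, at −0.87 and −2.37. Pcf11, a factor of transcript 3′ end cleavage, differed by −0.92, at −0.44 and 0.48. Ak4, a mitochondrial adenylate kinase, differed by −1.16, at −0.29 and 0.87. Slc38a6, an amino acid transporter, differed by 0.84, at 0.34 and −0.50. Naglu, a lysosomal enzyme of heparan sulfate breakdown, differed by 0.80, at 0.38 and −0.42.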

How the results depend on the processing

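The change from day 0 to day 6 in D6-deficient skin was called for 766 probe sets. The count was 250 with the methods' t-test after Benjamini-Hochberg adjustment (24 higher and 226 lower), 11427 with no fold threshold, 2312 at more than 2-fold, and 506 (88 higher and 418 lower) in a fit of the 17 arrays of the higher hybridization control set. Leaving out 1 array at a time gave 576 to 1124, the lowest without day 6 replicate 2 and the highest without day 6 replicate 3. With the replicate block it was 765. The block changed no count by more than 1.5 times. The remaining settings gave 551 to 835.

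The difference of changes between genotypes was called for 1 probe set. It was called for 0 with the lowest 50% left out, with only the arrays of the contrast fitted and with the adjusted t-test, for 42 with the unadjusted t-test and more than 3-fold, 6 with array weights, 2 with the hybridization set as a covariate, 9 with no fold threshold, 6 at more than 2-fold, and 0 to 14 with 1 array left out (14 and 8 without D6-deficient day 6 replicates 2 and 3, 4 and 5 without WT day 0 replicates 1 and 2, 2 without WT day 6 replicate 1, and 0 without D6-deficient day 0 replicate 3 or WT day 6 replicate 3). The genotypes on day 6 differed at 6 probe sets, at 2 with the lowest 50% left out, 23 with the unadjusted and 0 with the adjusted t-test, 2 with array weights, 45 with no fold threshold, 32 at more than 2-fold, and 3 to 64 with 1 array left out (64 without D6-deficient day 6 replicate 3, 16 without WT day 6 replicate 2, and 11 and 3 without D6-deficient day 6 replicates 1 and 2). The causes were not tested.

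Of 595 values of the 30 named genes under the alternatives 578 kept their call, 17 were no longer called and 0 changed direction. Of 120 such values of the genes that differed between genotypes, 87 kept their call, 33 were no longer called and 0 changed direction. The fit of the 17 arrays, the fit with day 0 replicate 1 alone and the list counts under other settings were chosen after seeing the data.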

Other observations

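Genes of prostaglandin, leukotriene and polyamine metabolism were another group that moved in D6-deficient skin by day 6, with 11 of 25 higher and 3 lower by limma (adjusted p under 0.05) and a median change of 0.25. Of all genes 18.5% rose and 14.7% fell. With 1 of the 6 mice left out 8 to 10 of the list were higher, and none of it fell without day 6 replicate 2. Under some other settings fewer than 8 were higher, and the median change lay between 0.18 and 0.38 over the alternatives. Ptgds, which makes prostaglandin D2, was at 7.46, 7.40 and 7.08 on day 0 and at 9.83, 9.81 and 8.32 on day 6, a change of 2.00 (SE 0.33). Hpgd, which inactivates prostaglandins, rose by 0.96 (SE 0.17), and Sat1, which breaks down polyamines, by 0.95 (SE 0.15). Ptger3, a prostaglandin E2 receptor, fell by 1.28 (SE 0.43), with day 6 replicate 3 at 11.07 inside the day 0 range.

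Of 25 antioxidant and metallothionein genes 6 rose and 1 fell, a share of rises near the 18.5% of all genes. The metal-binding proteins Mt1 and Mt2 rose by 1.24 (SE 0.24) and 1.27 (SE 0.30), and Gsta4, a glutathione transferase, by 1.13 (SE 0.30). Of 13 B cell and plasma cell genes 3 rose, also near the share of all genes. Igh-6, the heavy chain of IgM, was at 9.79, 9.87 and 9.47 on day 0 and at 11.72, 10.42 and 11.40 on day 6, a change of 1.47 (SE 0.29), against 0.11 in WT mice. No gene of this list passed the limma test of the difference between genotypes (lowest adjusted p = 0.31). Among 10 clade B serpins 2 rose and 1 fell, and Serpinb12 rose by 2.38 (SE 0.40).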
